A study of Mus musculus with 22 samples.

Results

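The immunity-related GTPases (IRGs) of the mouse were followed in the distal small intestine of GRWT and GRDim mice given normal or zinc-containing drinking water. Members were taken by Ensembl gene ID from the deposited count file, and 9 of its 54838 genes were chosen: Irgm1, Irgm2, Igtp, Iigp1, Tgtp1, Tgtp2, Ifi47, Gm4841 and F830016B08Rik. The series holds 22 libraries of bulk RNA-seq from adult female FVB/N mice. GRWT mice carry the wild-type glucocorticoid receptor, and GRDim mice are homozygous for a mutant receptor that dimerises poorly in every cell of the body; both came from crosses of heterozygotes kept in a conventional animal house. The control group drank normal water for 7 days and the zinc group water with 25 mM ZnSO4 for 7 days, and RNA came from whole ileum or from the scraped inner layer of the ileum, labelled IEC for intestinal epithelial cells. The design text speaks of 2 sequencing sets, and the library names carry a 1 or 2 that follows the tissue label, but no source says that this is the set. That text also names the glucocorticoid receptor ligand dexamethasone as a treatment, which no library's label gives.

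IRGs are GTP-binding proteins that cells make when interferon, above all interferon-gamma, reaches them. Effector IRGs gather on the membrane of vacuoles that hold intracellular microbes such as Toxoplasma or Chlamydia and help to break that membrane. Regulatory IRGs sit on the membranes of the cell itself and keep the effectors in their inactive form until a vacuole is reached. Irgm1, Irgm2 and Igtp (also called Irgm3) are the regulators. Iigp1 (Irga6), Tgtp1 and Tgtp2 (Irgb6) and Ifi47 (Irgd) are effectors, and Gm4841 and F830016B08Rik are little-studied relatives of Iigp1.

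The tissue labels did not follow the tissue content, which matters for all that follows. Myh11, the myosin heavy chain of smooth muscle, was at 298 to 463 CPM (counts scaled to the size of the library) in 12 libraries, called muscle-rich here, and at 3.22 to 20.5 CPM in the other 10, called muscle-poor. The split was wide and left no library between 20.5 and 298 CPM, but the threshold of 100 CPM was set with these values known. The 10 smooth muscle markers summed to 1578 to 2563 CPM in the muscle-rich and 197 to 331 CPM in the muscle-poor libraries, and the 10 epithelial markers to 19248 to 23699 and 29254 to 44431 CPM. Myh11 is among the smooth muscle markers, so their sum is not independent of the split. Muscle-rich libraries were labelled IEC in GRDim on water (3), ileum in GRDim on zinc (3), and a mix of 2 IEC and 1 ileum in each GRWT condition. Muscle-poor ones were labelled ileum in GRDim on water (3) and in both GRWT conditions (2 each), and IEC in GRDim on zinc (3). Groups were therefore compared within a muscle class, and within GRDim zinc and the tissue label cannot be told apart. The zinc marker Mt1, which encodes a metallothionein, was at 29.4 to 152 CPM in the water and 1213 to 2884 CPM in the zinc libraries, as the labels say. Nr3c1, the glucocorticoid receptor gene, was at 185 to 339 CPM over all libraries, and counts per gene do not show the point mutation of GRDim. P-values measure the spread between these libraries, which the labels number as replicates. One muscle-poor library, GRWT zinc ileum replicate 3, stood apart, with the distal ileum gene Fabp6 at 11.7 CPM against 4387 to 10866 CPM in the other 21. Its TMM scaling factor was 0.643, against 0.907 to 1.12 in the others, so its scaled gene levels are higher than its plain ones. The Myh11, Mt1, Nr3c1 and Fabp6 levels given here use plain totals, and all other levels are TMM-scaled. Libraries held 13149951 to 15620744 counts, so that 3 counts, the limit that a count of 0 allows, equal 0.192 to 0.228 CPM.

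Of the 9 genes, 6 lie in 2 clusters of mouse chromosome 11 (GRCm38). Irgm1 spans chr11:48861968-48871683, Tgtp1 chr11:48985327-48994172, Tgtp2 chr11:49057194-49064206 and Ifi47 chr11:49076587-49096974. Igtp (chr11:58199556-58207591) and Irgm2 (chr11:58199618-58222782) overlap on the same strand and share 162 exon bases in this annotation; the RefSeq start of Irgm2 used below lies downstream of the end of Igtp. Tgtp1 and Tgtp2 are near-identical copies and Tgtp1 also shares 223 exon bases with Gm12185, so their counts are uncertain: reads that fit several places were excluded, and reads in shared exons may have been left out or split. Ifi47 shares 111 exon bases with Olfr56 on its own strand and 106 with Gm12188 on the other strand.

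The promoters of the chromosome 11 members show how closely these genes are related and which interferon motifs they carry. A stretch of 90 bases ahead of the RefSeq start (GRCm38.p6), ending 16 bases before it, is printed 5′ to 3′ on the strand of the gene, for the 5 members with a match. Capitals mark the gamma-activated sequence (GAS, TTCNNNGAA), an element of interferon-gamma response, and the core of the interferon-stimulated response element (ISRE, GAAANNGAA), which IRF factors bind. Both were searched on both strands of the 250 bases before the start; the GAS letters read the same on both, and overlapping matches were kept.
Igtp, chr11:58199451-58199540, plus strand: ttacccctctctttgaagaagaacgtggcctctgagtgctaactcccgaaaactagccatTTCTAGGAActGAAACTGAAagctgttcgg
Irgm2, chr11:58214872-58214961, plus strand: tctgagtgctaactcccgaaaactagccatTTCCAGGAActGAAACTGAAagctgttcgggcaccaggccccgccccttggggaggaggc
Tgtp1, chr11:48992262-48992351, minus strand: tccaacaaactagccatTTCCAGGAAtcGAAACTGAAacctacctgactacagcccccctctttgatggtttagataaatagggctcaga
Tgtp2, chr11:49064228-49064317, minus strand: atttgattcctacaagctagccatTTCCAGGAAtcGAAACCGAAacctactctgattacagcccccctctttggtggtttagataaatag
Irgm1, chr11:48871436-48871525, minus strand: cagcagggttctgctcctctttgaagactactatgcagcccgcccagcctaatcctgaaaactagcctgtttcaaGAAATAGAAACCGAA

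Igtp, Irgm2, Tgtp1 and Tgtp2 carry the same arrangement over 20 bases, a GAS followed after 2 bases by an ISRE core. The block starts 45 bases before the start of Igtp, 75 before Irgm2, 88 before Tgtp1 and 81 before Tgtp2. Over the 50 bases around it, Igtp and Irgm2 were identical at 49, Tgtp1 and Tgtp2 at 42, and a regulator and a Tgtp gene at 35 to 37. Irgm1 has overlapping ISRE cores at -30 and -24 and no GAS in the window, and its window lies in an exon of another annotated Irgm1 transcript. Ifi47 has neither motif in its 250 bases. Of 32851 RefSeq promoter windows of that length, 7.13% hold an ISRE core, 7.02% a GAS, 0.752% both, and 7 windows (0.0213%) the block with its spacing. These 7 windows include the 4 members and Gm12185, a further IRG of the same cluster. A match is a description of letters, not of binding.

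**Figure D1:**
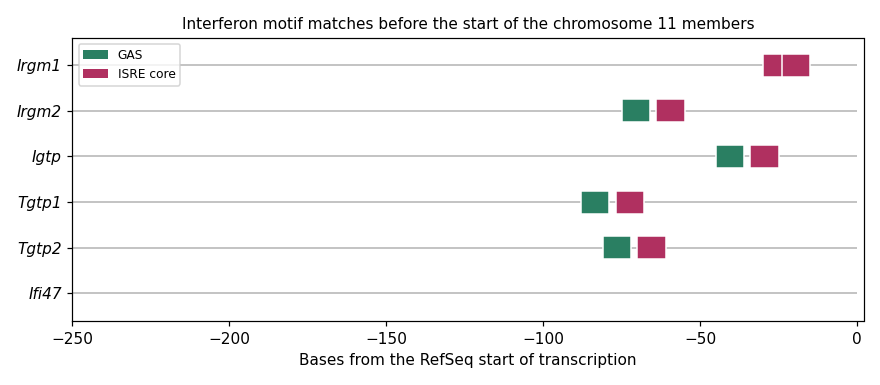
Positions of GAS (green) and ISRE core (red) matches in the 250 bases before the RefSeq start of the 6 chromosome 11 members, in bases from the start. Igtp, Irgm2, Tgtp1 and Tgtp2 each show a GAS with an ISRE core directly after it, Irgm1 shows overlapping ISRE cores and Ifi47 none.

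The other 3 members form 1 cluster on chromosome 18: Gm4841 (chr18:60268305-60273272), F830016B08Rik (chr18:60293380-60303016) and Iigp1 (chr18:60376027-60392634).

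In muscle-rich GRWT libraries on water the IRGs were expressed at low to moderate levels. Compared per kilobase of exon, Ifi47 was the highest (22.1 CPM per kb, mean of 3), followed by Igtp (12.3), Irgm2 (11.8), Irgm1 (9.31), Iigp1 (2.69) and Tgtp2 (0.854), with Tgtp1 (0.168), F830016B08Rik (0.117) and Gm4841 (0.0999) last. The levels of Igtp (19.7 to 29.3 CPM) and Irgm2 (35.2 to 55.3 CPM) varied enough that the order of these neighbours per kilobase does not exceed their spread. Gm4841 had 4, 7 and 2 counts in these libraries, F830016B08Rik 9, 8 and 1, and Tgtp1 10, 10 and 5. Every member passed the filter on low counts in every fit. With counts this low in GRWT, Gm4841 and F830016B08Rik did so in the muscle-rich fit through the GRDim libraries. In the muscle-poor fit they did so through the water libraries. Their part in the counts of members called in those fits is therefore no support for these counts. Tgtp1 also reached the filter in GRWT libraries, at low counts.

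The first question was whether the levels differ between GRDim and GRWT mice on water. In the muscle-rich libraries all 9 IRGs were higher in GRDim, regulators and effectors alike, by log2 fold changes of 1.86 to 4.46. Calls required an adjusted p under 0.05 in edgeR's quasi-likelihood test and a log2 fold change above 0.8 in size, and 9 of 9 members were called higher against 5.02% of the 15947 genes tested. The median of the members was 3.19, against -0.0028 over all genes.

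Among the regulators, Igtp changed most. It was at 25.5, 29.3 and 19.7 CPM in GRWT and at 296, 273 and 247 CPM in GRDim. The lowest GRDim library was thus far above the highest GRWT one, and the log2 fold change was 3.47 ± 0.21 (SE, adjusted p = 3.75e-06, edgeR). Irgm2, its neighbour with the same promoter block, was at 39.7, 55.3 and 35.2 CPM in GRWT and at 221, 235 and 215 CPM in GRDim (log2 fold change 2.38 ± 0.17, adjusted p = 5.32e-06). Irgm1, the regulator that cells also need for autophagy and for survival of infected macrophages, was at 52.7, 53.2 and 56.4 CPM in GRWT and 207, 201 and 175 CPM in GRDim (1.86 ± 0.13, adjusted p = 1.87e-06), the smallest difference of the 9.

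Among the effectors, Iigp1 was at 17.9, 18.8 and 10.3 CPM in GRWT and at 156, 149 and 122 CPM in GRDim (log2 fold change 3.19 ± 0.27, adjusted p = 3.28e-05). Ifi47, the most abundant effector in GRWT, was at 53.5, 56.5 and 54.0 CPM and rose to 223, 213 and 199 CPM (1.97 ± 0.08, adjusted p = 2.18e-09). Ifi47 had the smallest adjusted p of the 9, although its fold change was smaller than that of every member but Irgm1. Tgtp2 was at 2.89, 2.88 and 1.75 CPM in GRWT and 25.5, 24.6 and 23.1 CPM in GRDim (3.29 ± 0.21, adjusted p = 1.26e-07). Its near-identical copy Tgtp1 went from 10, 10 and 5 counts in GRWT to 203, 187 and 170 counts in GRDim (4.46 ± 0.43, adjusted p = 1.31e-05). On chromosome 18, Gm4841 went from 4, 7 and 2 to 97, 81 and 78 counts (4.25 ± 0.47, adjusted p = 1.28e-05) and F830016B08Rik from 9, 8 and 1 to 55, 59 and 48 counts (3.14 ± 0.44, adjusted p = 5.88e-05). GRDim libraries lay above GRWT libraries without overlap for all 9 members, as they did for 26.4% of all genes tested. All 9 stayed called when each library was left out in turn and with the tissue label as a term within the muscle-rich libraries. With that term over all 22 libraries, which gives 1 value for both classes, Irgm2, Igtp, Iigp1 and F830016B08Rik lost their calls and 5 remained.

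**Figure D2:**
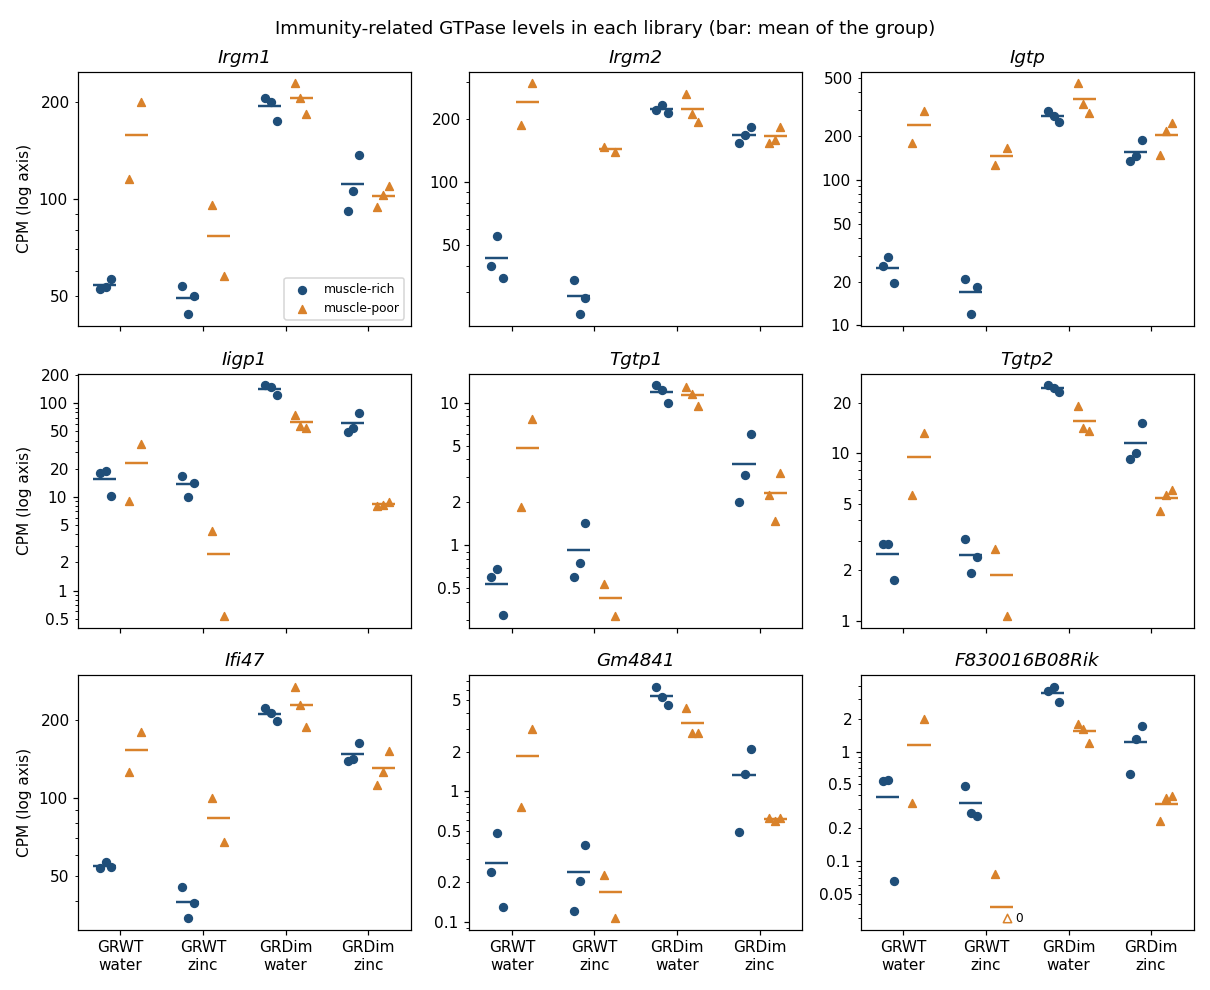
CPM of each member in each of the 22 libraries on a log axis, by genotype and drink, with muscle-rich libraries as circles, muscle-poor ones as triangles and bars at the group means; the hollow triangle marks a library with 0 counts of F830016B08Rik. Muscle-rich GRWT libraries lie lowest for Irgm1, Irgm2, Igtp and Ifi47, while for Iigp1 the lowest are the muscle-poor libraries on zinc.

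In the muscle-poor libraries on water none of the 9 members was called between the genotypes (edgeR), against 0.0288% of 13908 genes called higher. DESeq2 called 0 as well, and 3 members had an unadjusted p under 0.05, against 5.63% of genes. The log2 fold changes ran from -0.13 (Irgm2) to 1.43 (Iigp1), with adjusted p of 0.87 to 0.99. Igtp was at 178 and 294 CPM in the GRWT libraries and at 458, 331 and 288 CPM in the GRDim libraries, so the groups overlapped. Irgm2 was at 188 and 297 CPM in GRWT and 265, 212 and 193 CPM in GRDim, also overlapping. For 4 members, Iigp1, Tgtp1, Tgtp2 and Ifi47, the GRDim libraries lay above the GRWT libraries without overlap, against 21.0% of all genes. Iigp1 was at 9.06 and 37.0 CPM in GRWT and 74.7, 57.5 and 54.9 CPM in GRDim (1.43 ± 0.62, adjusted p = 0.88, edgeR). Its value ran from 0.75 to 2.78 with 1 library left out. Ifi47 was at 126 and 180 CPM in GRWT and 269, 230 and 188 CPM in GRDim (0.57 ± 0.23, adjusted p = 0.87). The GRWT group is of 2 libraries, of which replicate 3 was higher than replicate 2 for all 9 members. A p that misses the threshold does not show that the genotypes had equal levels here.

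The difference between the classes was tested itself. The genotype effect on water was larger in the muscle-rich than in the muscle-poor libraries for 7 of 9 members at an adjusted p under 0.05 (edgeR), against 1.31% of 16389 genes. Among them the difference in log2 fold change was from 1.37 ± 0.24 for Ifi47 (adjusted p = 0.00658) to 3.41 ± 0.74 for Gm4841 (adjusted p = 0.0282). It was 2.48 ± 0.27 for Irgm2 (adjusted p = 6.51e-05) and 2.85 ± 0.37 for Igtp (adjusted p = 0.00041). Iigp1 (1.75 ± 0.60, adjusted p = 0.22) and F830016B08Rik (2.74 ± 0.77, adjusted p = 0.10) did not pass. With 1 library left out, the difference ran from 0.40 to 2.43 for Iigp1 and 0.97 to 3.49 for F830016B08Rik. It ran from 1.84 to 3.89 for Tgtp1 and 2.10 to 4.07 for Gm4841. Of the 11 fits that leave out 1 library, Irgm2 and Igtp passed in all, Irgm1, Tgtp2 and Ifi47 in 10, Gm4841 in 4 and Tgtp1 in 3. The count was 2 without GRWT water ileum replicate 3, 1 of the 2 muscle-poor GRWT libraries on water.

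**Figure D3:**
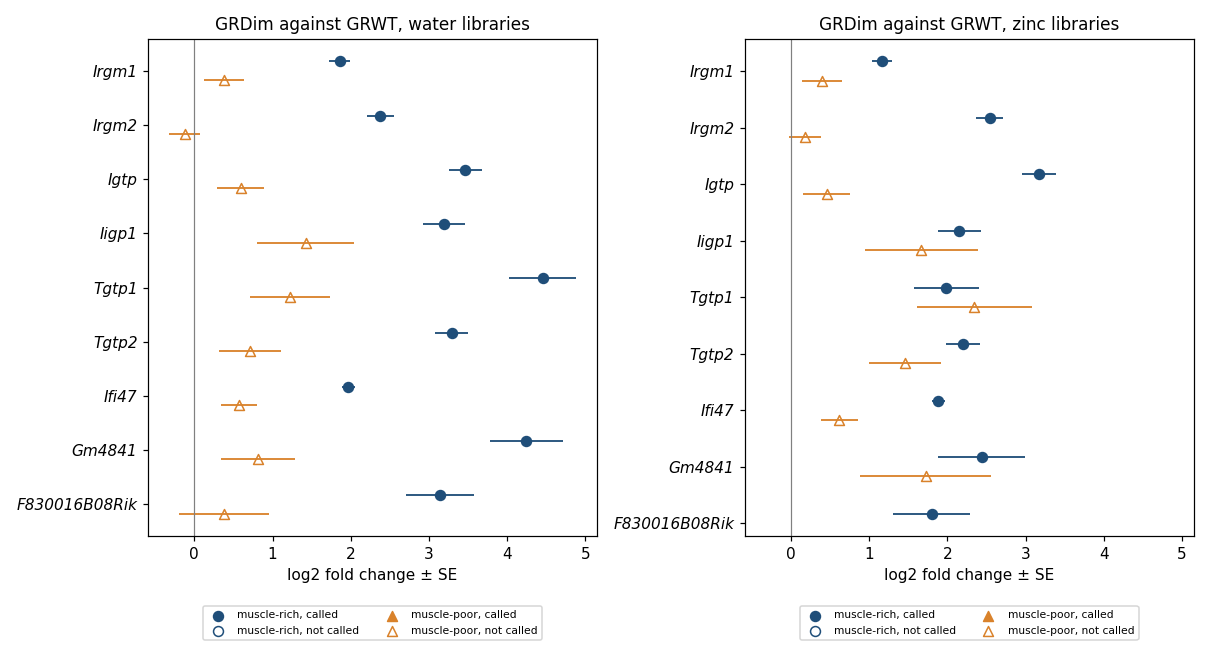
Log2 fold change ± SE of GRDim against GRWT for each member, on water (left) and on zinc (right), with muscle-rich values as circles and muscle-poor values as triangles, filled where called. All 9 muscle-rich values are called in both panels and no muscle-poor value is; F830016B08Rik has no muscle-poor value on zinc because its GRWT libraries held 1 and 0 counts.

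Side by side, the classes differed in GRWT and less so in GRDim. In GRWT on water 7 of 9 members were called higher in the muscle-poor than in the muscle-rich libraries, against 3.60% of 16389 genes. Igtp was higher by a log2 fold change of 3.25 ± 0.28 (adjusted p = 6.93e-08, edgeR), Tgtp1 by 3.14 ± 0.57, Gm4841 by 2.71 ± 0.62 and Irgm2 by 2.48 ± 0.20. With 1 library left out, the value of Tgtp1 ran from 1.77 to 3.82 and that of Gm4841 from 1.41 to 3.38, each was called in 4 of 5 fits, and the count of members called was 5 to 9. Iigp1 was not called (0.56 ± 0.46, adjusted p = 0.37), nor was F830016B08Rik (1.57 ± 0.64, adjusted p = 0.062). The same comparison in GRDim on water, added after the values were seen, gave 2 members lower in the muscle-poor libraries, against 18.0% of genes. These were Iigp1 (-1.19 ± 0.39, adjusted p = 0.024) and F830016B08Rik (-1.17 ± 0.44, adjusted p = 0.043), and with single libraries left out the count was 0 to 2. The other 7 members had values from -0.69 to 0.40. In bulk tissue a change in the number of expressing cells and a change in the RNA per cell cannot be told apart, and in GRDim the classes also carry different tissue labels. T and natural killer cell markers moved with the class in GRWT on water, where 8 of 12 were called higher in the muscle-poor libraries; their part in the IRG levels was not tested.

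**Figure D4:**
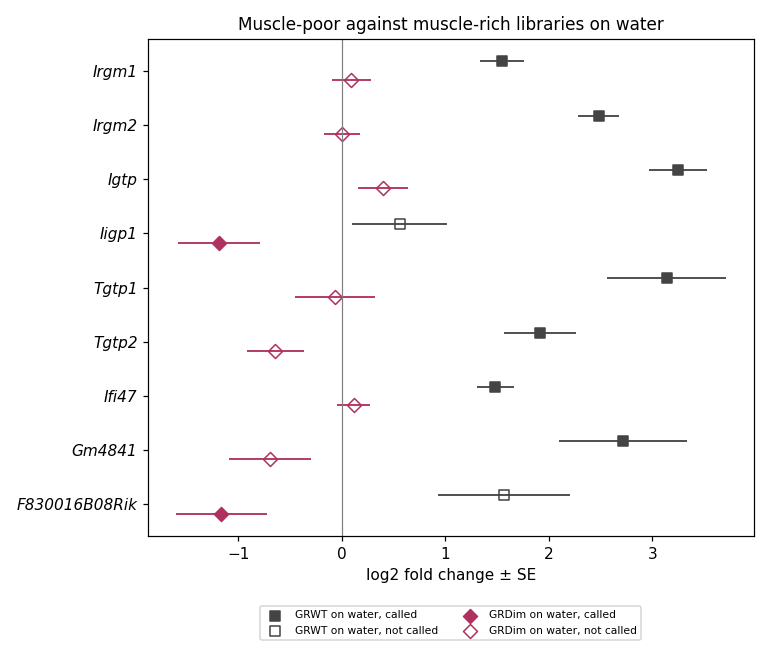
Log2 fold change ± SE of muscle-poor against muscle-rich libraries on water for each member, in GRWT (squares) and GRDim (diamonds), filled where called. In GRWT 7 members lie well above 0, and in GRDim Iigp1 and F830016B08Rik are the members called lower.

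Markers of T and natural killer cells, which make interferon-gamma, moved with the genotype in the muscle-rich libraries. The 12 markers summed to 69.3 to 109 CPM in GRWT and 408 to 489 CPM in GRDim on water, and 11 of 12 were called higher. Of all genes tested in the muscle-rich libraries, 5.02% were called higher. Cd2 had 0 counts in 1 library, and no other of these markers was at 0 in any. In the muscle-poor libraries on water the sums were 205 and 432 CPM in GRWT and 304 to 509 CPM in GRDim, and no marker was called. Plasma and B cell markers summed to 1364 to 1761 CPM in GRWT and 3667 to 4620 CPM in GRDim in the muscle-rich libraries, with 2 of 7 called higher. Macrophage and dendritic cell markers summed to 179 to 227 and 297 to 333 CPM, with 0 of 8 called. The epithelial sums were 21371 to 22473 and 19248 to 20707 CPM, with 1 of 10 called, lower. The part of these cell types in the IRG levels was not tested.

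Genes of interferon-gamma signalling were also compared between the genotypes. Ifng, which encodes interferon-gamma, had 3, 1 and 1 counts in the muscle-rich GRWT libraries on water, within the limit that a count of 0 allows, and 34, 16 and 30 counts in GRDim (adjusted p = 2.18e-05, edgeR). Irf1, which encodes an interferon-induced transcription factor, was at 174 to 227 CPM in GRWT and 376 to 399 CPM in GRDim (log2 fold change 0.99 ± 0.08, adjusted p = 6.37e-07, edgeR). Of 22 genes of interferon-gamma signalling, 12 were called higher in GRDim, none lower and 10 not called, with a median of 1.24. The share called higher over all genes tested was 5.02%. After Ifng the largest differences were those of Nlrc5, the activator of MHC class I genes (3.40 ± 0.24, adjusted p = 5.06e-06), and Cd274, which encodes PD-L1 (2.83 ± 0.26, adjusted p = 4.14e-05). Most of these genes are known interferon targets, so the list is not independent of the members. In the muscle-poor libraries on water Irf1 (0.06) and Ifng (1.07 on the log2 scale) were not called.

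Of 17 genes that act with the IRGs at the vacuole, 5 were called higher in GRDim and none lower: Ubd, which encodes the ubiquitin-like protein FAT10 (6.09 ± 0.49, adjusted p = 3.02e-05), and the guanylate-binding proteins Gbp7 (1.74 ± 0.10), Gbp2 (1.50 ± 0.12), Gbp5 (1.31 ± 0.19) and Gbp3 (0.90 ± 0.13). Gbp5 and Gbp3 are named in addition to the 3 largest. Over all genes tested, 5.02% were called higher in this comparison. A further guanylate-binding protein of the list, Gbp2b, had a log2 fold change of 0.49 ± 0.08 (adjusted p = 0.000194, edgeR), below the size asked for. The autophagy genes that help to load IRGs onto vacuoles, such as Atg5 and Atg3, were not called, and the median of the 17 was -0.061. Of the other IRG genes, 7 of 8 were tested and 6 called higher, led by Gm12185 (4.51 ± 0.36, adjusted p = 5.87e-07), which shares exon bases with Tgtp1, Gm12250 (3.24 ± 0.19, adjusted p = 3.51e-07) and Gm5431 (2.42 ± 0.19, adjusted p = 4.39e-06). The member of that list not called was Irgq, which differs from the interferon-inducible IRGs in being expressed at a steady 30.2 to 48.8 CPM across the 22 libraries. Irgc1, the testis IRG, had at most 1 count in any library.

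The second question was what 7 days of zinc did. In muscle-rich GRDim libraries 7 of 9 members were called lower on zinc, against 0.558% of 15947 genes, with a median log2 fold change of -1.11 over the 9 against -0.013 over all genes. The values of largest size were those of genes of low level. Gm4841 fell from 97, 81 and 78 counts on water to 7, 21 and 32 counts on zinc (log2 fold change -2.04 ± 0.37, adjusted p = 0.00573, edgeR). Tgtp1 fell from 203, 187 and 170 to 29, 48 and 91 counts (-1.69 ± 0.33, adjusted p = 0.0123). F830016B08Rik was at 55, 59 and 48 counts on water and 9, 20 and 26 on zinc (-1.50 ± 0.37, adjusted p = 0.023). In each of the 3, the lowest water library lay above the highest zinc library, and zinc replicate 3 was the highest of the zinc libraries.

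Iigp1 fell from 156, 149 and 122 CPM to 49.7, 54.7 and 79.5 CPM (-1.24 ± 0.24, adjusted p = 0.0192). Tgtp2 fell from 25.5, 24.6 and 23.1 CPM to 9.23, 10.1 and 15.1 CPM (-1.11 ± 0.18, adjusted p = 0.00308). Among the regulators, Igtp was at 135, 145 and 188 CPM (-0.82 ± 0.19, adjusted p = 0.031) and Irgm1 at 91.6, 106 and 137 CPM on zinc (-0.82 ± 0.12, adjusted p = 0.0037). Irgm2 was at 154, 168 and 184 CPM and was not called (-0.43 ± 0.16, adjusted p = 0.13). Ifi47, at 139, 141 and 162 CPM, had an adjusted p of 0.00129 but a log2 fold change of -0.54, below the size asked for. Water libraries lay above zinc libraries without overlap for all 9, and for 14.7% of all genes tested.

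The number of calls for zinc in muscle-rich GRDim libraries rested on single libraries. With 1 library left out they numbered 2 (without GRDim water IEC replicate 5 or GRDim zinc ileum replicate 2), 3 (without GRDim water IEC replicate 4 or GRDim zinc ileum replicate 1) or up to 7, and Tgtp2 and Gm4841 were called in all 6 such fits. With the tissue label as a term, which the GRWT libraries alone can estimate, 0 of 9 were called, and a single fit to all 22 libraries or one with the muscle class as a term called 1. Of the T and natural killer cell markers, Gzmb (-1.55 ± 0.21) and Gzma (-1.08 ± 0.16) of the 12 were called lower, and their sum went from 408 to 489 CPM on water to 235 to 238 CPM on zinc; its part in the IRG levels was not tested.

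**Figure D5:**
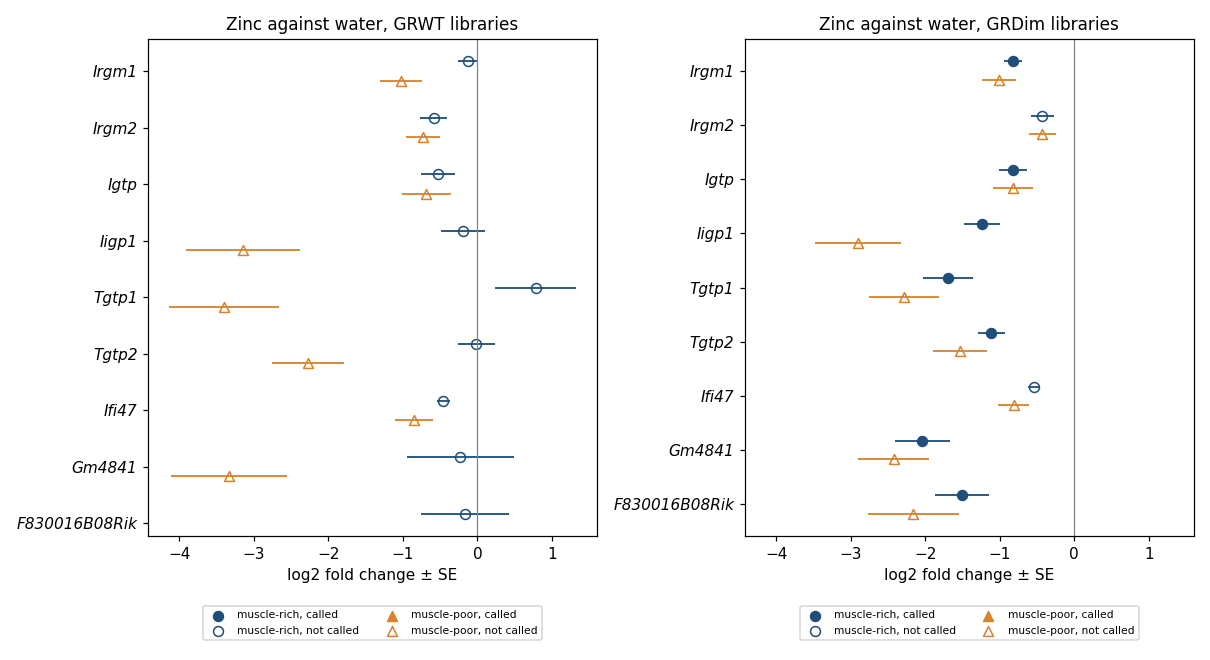
Log2 fold change ± SE of zinc against water for each member, in GRWT (left) and GRDim (right), with muscle-rich values as circles and muscle-poor values as triangles, filled where called. In GRDim 7 muscle-rich values are called; every muscle-poor value drawn lies below 0 and none is called, and F830016B08Rik has no muscle-poor GRWT value because the zinc libraries held 1 and 0 counts.

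In muscle-rich GRWT libraries, whose levels on water were already low, none of the 9 was called lower on zinc, against 0.0564% of genes. DESeq2 also called 0, and 3 had an unadjusted p under 0.05 in edgeR, against 11.5% of genes. Ifi47 went from 53.5, 56.5 and 54.0 to 45.0, 34.3 and 39.2 CPM without overlap (-0.46 ± 0.09, adjusted p = 0.030), below the size asked for. Igtp went from 25.5, 29.3 and 19.7 to 20.9, 11.9 and 18.3 CPM (-0.53 ± 0.23, adjusted p = 0.42) and overlapped. Irgm2 had the largest decrease in value of the 9, from 39.7, 55.3 and 35.2 to 34.4, 23.4 and 28.0 CPM (-0.59 ± 0.17, unadjusted p = 0.00759 and adjusted p = 0.24 in edgeR), and like Ifi47 it did not overlap, as held for 7.35% of all genes. Tgtp1 had 10, 10 and 5 counts on water and 10, 11 and 22 on zinc, the single positive value among the 9 (0.78 ± 0.55, adjusted p = 0.61). The test of the zinc by genotype interaction called 0 of 9 (edgeR), against 0.263% of genes, and DESeq2 called 2, against 1.79%. There, 4 members had an unadjusted p under 0.05 in edgeR, against 15.5% of genes, and the smallest adjusted p was 0.12, for Tgtp1 (-2.47 ± 0.64). The zinc effect is therefore not shown to differ between the genotypes in these libraries.

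Muscle-poor libraries also had lower IRG values on zinc, which edgeR did not call in either genotype. In GRDim, Iigp1 went from 74.7, 57.5 and 54.9 CPM on water to 7.92, 8.28 and 8.73 CPM on zinc (-2.90 ± 0.58, adjusted p = 0.21). These groups stood far apart, and the zinc libraries differed little from each other. Gm4841 went from 57, 37 and 40 counts to 8 in each zinc library (-2.42 ± 0.48, adjusted p = 0.21), and Tgtp1 from 166, 151 and 135 to 29, 20 and 41 counts (-2.28 ± 0.47, adjusted p = 0.23). Irgm2 moved least, from 265, 212 and 193 to 155, 159 and 184 CPM (-0.43 ± 0.18, adjusted p = 0.62). For all 9 members the water libraries lay above the zinc libraries without overlap, against 12.8% of all genes, and all 9 had an unadjusted p under 0.05, against 7.89% of genes in either direction, but 0 were called lower, against 0.0288% of 13908 genes. The sum of T and natural killer cell markers went from 304 to 509 CPM on water to 179 to 268 CPM on zinc, with 0 of 12 called; their part was not tested.

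The spread in that fit was shared with GRWT zinc ileum replicate 3, the library that stood apart. Without it, in a fit added after the data were seen, 7 of 9 were called lower in GRDim, all but Irgm2 (adjusted p = 0.22) and Igtp (adjusted p = 0.18), against 0.879% of genes in that fit. Gm4841 and F830016B08Rik are among the 7 but passed the count filter through the water libraries, so they lend that count no support. They entered the muscle-poor DESeq2 fit in the same way. Iigp1 then had a value of -2.90 ± 0.51 (adjusted p = 0.040). DESeq2 called 6 on all muscle-poor libraries, against 0.388% of genes, and a single edgeR fit to all 22 libraries also called 6, against 0.458%.

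In muscle-poor GRWT libraries Iigp1 was at 9.06 and 37.0 CPM on water and 4.36 and 0.532 CPM on zinc (-3.14 ± 0.77, adjusted p = 0.23). The lower zinc value is that of replicate 3, as it was for 8 of the 9 members; Igtp was at 126 and 164 CPM with replicate 3 the higher, an order that turns with plain totals. F830016B08Rik had 1 and 0 counts on zinc and Gm4841 3 and 1, so that no fold change is given for F830016B08Rik. Water libraries lay above zinc libraries for all 9 members, against 20.2% of all genes. None was called lower (edgeR), against 0.00719% of genes, with 8 at an unadjusted p under 0.05 (17.1% of genes in either direction); DESeq2 called 5, against 0.554% of genes. Each fit without 1 of these libraries leaves a group of 1 library, which was assumed to vary like the other groups. Across such fits the Iigp1 value ran from -5.39 to -1.80. There, edgeR called members only with replicate 3, the library that stood apart, alone on zinc. DESeq2 was not refitted with libraries left out.

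No member's zinc effect was shown to differ between the muscle classes. The test called 0 of 9 in GRWT (edgeR), against 0.0183% of 16389 genes, with 6 at an unadjusted p under 0.05 (17.0% of genes) and 3 called by DESeq2 (2.52%). In GRDim it called 0 of 9, against 0% of genes, with 1 at an unadjusted p under 0.05 and 0 by DESeq2. That 1 was Iigp1, whose decrease was -2.90 in the muscle-poor and -1.24 in the muscle-rich libraries. The zinc by genotype interaction in the muscle-poor libraries called 0 of 9, against 0% of genes, with 0 at an unadjusted p under 0.05 and 0 by DESeq2.

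On zinc the genotypes still differed in the muscle-rich libraries. All 9 members were called higher in GRDim, against 2.43% of genes, by 1.16 ± 0.13 (Irgm1) to 3.17 ± 0.22 (Igtp) on the log2 scale, and GRDim lay above GRWT without overlap for all 9, against 17.5% of all genes. The GRDim libraries here are labelled ileum and 2 of the 3 GRWT libraries IEC, and over all 22 libraries the tissue label as a term left 1 call, the replicate block 4 and the muscle class 6. F830016B08Rik was called in 2 of the 6 fits that leave out 1 library and the other 8 members in all 6. T and natural killer cell markers summed to 63.5 to 117 CPM in GRWT and 235 to 238 CPM in GRDim on zinc, and 7 of 12 were called higher; their part was not tested. Igtp was at 20.9, 11.9 and 18.3 CPM in GRWT on zinc and at 135, 145 and 188 CPM in GRDim on zinc. In the muscle-poor libraries on zinc 0 of 9 were called (edgeR), against 0.0431% of genes, with 4 at an unadjusted p under 0.05 (22.9% of genes) and 2 called by DESeq2 (0.633%). Their values ran from 0.18 (Irgm2) to 2.34 (Tgtp1) for the 8 members other than F830016B08Rik, with adjusted p of 0.15 to 0.59.

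The third question was whether zinc brought GRDim to the GRWT level. Muscle-rich GRDim libraries on zinc lay above GRWT libraries on water for all 9 members, as for 20.6% of all genes, and all 9 were called higher, against 2.25% of genes; for Gm4841 the lowest GRDim and the highest GRWT library each had 7 counts, and the order rests on the scaling. Of the 6 fits that leave out 1 library, Gm4841 was called in 4 and F830016B08Rik in 3, and the other 7 members in all. Of the 12 T and natural killer cell markers, 9 were called higher in this comparison. Plasma and B cell markers summed to 3356 to 4285 CPM in GRDim on zinc and 1364 to 1761 CPM in GRWT on water. Smooth muscle markers summed to 1578 to 2028 and 2339 to 2563 CPM. The part of these cell types in the IRG levels was not tested. In the muscle-poor libraries no member was wholly higher in GRDim on zinc than in GRWT on water. There, Irgm1, Irgm2, Iigp1 and Gm4841 lay below GRWT on water in every GRDim zinc library, as did 17.0% of all genes, and the other 5 overlapped, with no test made; with plain totals Irgm2 and Iigp1 overlapped as well. Irgm1 was at 94.5, 103 and 110 CPM in those GRDim libraries against 116 and 200 CPM in GRWT. In the muscle-rich libraries the median log2 fold change of GRDim on zinc against GRWT on water was 1.96 over the 9 members. It was 3.19 for muscle-rich GRDim against GRWT with both on water. These contrasts share the GRWT water libraries. Irgm1 (91.6 CPM and above in GRDim on zinc, 56.4 CPM and below in GRWT on water) had the smallest value, 1.04 ± 0.13 (adjusted p = 0.000404, edgeR), and Tgtp1 the largest, 2.77 ± 0.46 (adjusted p = 0.00198). The GRDim libraries on zinc carry the ileum label and 2 of the 3 GRWT libraries on water the IEC label. With the muscle class as a term over all 22 libraries, which gives 1 value for both classes, 0 of 9 were called.

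The interferon genes were also compared between zinc and water. In muscle-rich GRDim libraries 3 of 22 genes of interferon-gamma signalling were called lower and none higher, against 0.558% of all genes called lower: the chemokine genes Cxcl10 (-1.37 ± 0.26, adjusted p = 0.00638) and Cxcl9 (-1.29 ± 0.21, adjusted p = 0.00641) and the signalling inhibitor Socs1 (-1.10 ± 0.17, adjusted p = 0.00169). Irf1 had a value of -0.35 ± 0.08 (adjusted p = 0.018) and Ifng of -0.96 ± 0.34 (adjusted p = 0.097), and neither was called. Among the genes of the vacuole Gbp2 was the one called lower of 17 (-1.07 ± 0.12, adjusted p = 0.000671), and among the 7 other IRG genes tested it was Gm12185 (-1.29 ± 0.27, adjusted p = 0.0111).

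Across libraries the members moved together. Over the 22 libraries, with each muscle class centred on its own mean of log2(CPM + 1), the 36 pairs of members had Pearson correlations of 0.77 to 0.98 with a median of 0.94. The points share condition and library, so this is a description of the common pattern. The non-member genes most like the mean of the standardised members were Irf8 (r = 0.99 over 22 libraries), an interferon-induced transcription factor, Pla2g16 (0.98), a phospholipase gene, Mlkl (0.98), the executor of necroptosis, Il18bp (0.98), the secreted inhibitor of IL-18, Socs1 (0.98) and Duoxa2 (0.97), the maturation factor of the dual oxidase of the epithelium. Within the muscle-rich libraries these 6 had r of 0.99, and within the muscle-poor ones r ranged from 0.95 (Il18bp) to 0.99 (Irf8). They were the first 6 among genes with a mean of at least 5 CPM.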

How the data were processed

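RNA-seq counts of 22 libraries were analysed. The deposited counts per gene are raw: the authors trimmed single-end reads from stranded libraries with Trimmomatic, aligned them to mm10 with HISAT2 2.0.4, and counted them with featureCounts without reads that map to several places; the annotation release and the strand setting are not given in the sources used here. The authors tested with DESeq2. Here, libraries were split at 100 CPM of Myh11, and edgeR 4.0.16 (R 4.3.3) was used with its default count filter, TMM scaling and the quasi-likelihood test on groups of genotype by drink, separately in the 12 muscle-rich and 10 muscle-poor libraries, and in 1 fit to all 22 for comparisons between the classes. P-values were adjusted over all genes tested (Benjamini-Hochberg), and a gene was called at an adjusted p under 0.05 and a log2 fold change above 0.8 in size. CPM of genes were scaled by TMM factors over the 22 libraries, except those of Myh11, Mt1, Nr3c1 and Fabp6 and of the 3 counts taken as the limit, which use plain totals.

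All 9 members were named. From the lists of other IRGs, interferon-gamma signalling and vacuole loading, up to 3 genes a direction with the largest log2 fold change among those called in GRDim against GRWT on water or in zinc in GRDim were named, besides Irf1 and Ifng and the 6 genes most like the members; genes named beyond that were chosen after their values were seen, and 1 gene that the rule names is not reported here. Members and lists were chosen with earlier results of these data known. Of the 54838 genes, 54809 were matched to GENCODE vM21. In addition, 2 libraries of GRDim on water share 1 column name and hold different counts, so they carry no replicate number. Alternatives were other filters and scaling, DESeq2 1.42.0, covariates, a replicate block, and leaving out libraries.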

Additional observations from a re-analysis of the deposited data

Results flagged for a closer look

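The GRDim against GRWT difference on water was larger in the muscle-rich than in the muscle-poor libraries for 7 members by a test of the difference itself (edgeR quasi-likelihood test, adjusted over 16389 genes). The difference in log2 fold change was 1.46 for Irgm1, 2.48 for Irgm2, 2.85 for Igtp, 3.21 for Tgtp1, 2.56 for Tgtp2, 1.37 for Ifi47 and 3.41 for Gm4841. The muscle-poor arm rests on 2 GRWT libraries, and without GRWT water ileum replicate 3 the test called 2 members. T and natural killer cell markers showed the same direction of median difference (1.76 over 12 markers, of which 2 were called); their part was not tested.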

How the results depend on the processing

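Calls for GRDim against GRWT on water in the muscle-rich libraries numbered 9 under the alternatives tried, except 8 with the muscle class and 5 with the tissue label as a covariate. Of 741 values of called members under alternatives, 602 remained called, 139 did not but kept their sign, and 0 changed sign. The 741 include the values without the fold threshold, which repeat the main fit. Those had to remain called with the same sign and are no support. The tissue label also lowered the calls for zinc in GRDim to 0 (muscle-rich, also within that class alone), GRDim against GRWT on zinc to 1, and GRDim on zinc against GRWT on water to 0. These covariate fits give 1 value for both classes. With the muscle class as covariate, calls were 1 for zinc in GRDim, 0 for GRDim on zinc against GRWT on water, 8 for GRDim against GRWT on water and 6 on zinc, and for the muscle-poor genotype comparisons the tissue label gave 5 on water and 1 on zinc. A single fit to all 22 libraries gave 1 call for zinc in muscle-rich GRDim, and in the muscle-poor libraries 6 for zinc in GRDim, 7 for zinc in GRWT and 2 for genotype on zinc. DESeq2 called 2 for the muscle-rich interaction, 5 and 6 for zinc in muscle-poor GRWT and GRDim, 2 for genotype on zinc in the muscle-poor libraries, 3 for the class difference of zinc in GRWT and 1 for the class comparison in GRDim. Without the count filter, zinc in muscle-poor GRDim had 1 call and the class comparison in GRDim 0. Without the fold threshold, zinc in muscle-rich GRWT had 1. A shared spread without GRWT zinc ileum replicate 3 gave 7 calls for zinc in muscle-poor GRDim, with Gm4841 and F830016B08Rik among them, which passed the filter through the water libraries. The cause of these shifts was not tested.

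With each library left out in turn, calls ranged from 2 to 7 for zinc in muscle-rich GRDim, 0 to 3 for the interaction there, 0 to 7 for zinc in muscle-poor GRWT, 0 to 2 for genotype on zinc in the muscle-poor libraries, 2 to 9 for the class difference of the genotype effect, 0 to 5 for that of zinc in GRWT, and 0 to 2 for the class comparison in GRDim.

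With the replicate block and muscle class, calls were 9 for zinc in GRDim, 9 for GRDim against GRWT on water, 4 for it on zinc, and 1 for GRDim on zinc against GRWT on water. The numbers do not pair the samples: over 25 same-numbered pairs the correlation of deviations ran from -0.19 to 0.18. At these depths, levels under 0.192 to 0.228 CPM (3 counts) cannot be told from 0.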
